A study of Mus musculus with 18 samples.

Results

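The cytosolic ribosomal proteins are the proteins that, with the ribosomal RNAs, make up the small (Rps) and large (Rpl) subunits of the ribosome outside mitochondria. They were taken as all probe sets of the array whose only gene symbol begins with Rpl or Rps and a number, or with Rplp, without the S6 kinase genes. This gave 48 probe sets of 34 genes out of 12488 probe sets and 8251 genes with a probe set of their own on the array, 22 of them for 17 large-subunit genes and 26 for 17 small-subunit genes. No probe set carried Rplp1, Rplp2, Rpl3, Rpl5, Rpl10, Rpl11, Rps6 or Rps27a as its only symbol.

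The genes of this family are known to be expressed together in fixed proportions, since each ribosome holds one copy of nearly every protein. Their mRNAs start with a run of pyrimidines, the 5′ TOP sequence, through which the mTOR pathway controls their translation. Growing tissue, such as the kidney in the first weeks of life, is known for its high ribosome production.

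Total kidney RNA was measured on Affymetrix MG_U74Av2 arrays, 1 mouse per array. Aprt encodes adenine phosphoribosyltransferase, which salvages adenine. Mice without it excrete 2,8-dihydroxyadenine, which forms kidney stones. The 4 groups were 1-month-old Aprt KO mice (Aprt-/-, 3 arrays), 1-month-old controls (Aprt+/+, 3 arrays), 7-day-old Aprt KO mice (6 arrays) and 7-day-old controls (6 arrays), all of strain C57. The labels pair each Aprt KO mouse with a control littermate of the same sex, in 9 litter pairs, 6 at 7 days and 3 at 1 month. The labels give no more on the allele. The series' design text calls the 2 ages newly born and adult, and the ages used here are those of the sample labels. RNA came from kidney tissue, in which fewer cells of a type and less RNA per cell cannot be told apart.

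Values are MAS5 signals in the scale the authors deposited, which sets the trimmed mean of each array near 500. A log2 difference below is a difference of log2(signal + 29), which understates the change of dim probe sets. A probe set is called where limma's moderated test gave an adjusted p under 0.05 over all 7464 probe sets tested, those with a mean signal of at least 119. Of the ribosomal protein probe sets, 29 of 24 genes were tested. The other 19 had mean signals between 11.5 and 84.4, and with them 10 genes, among them Rps14, Rps15, Rps20, Rpl32 and Rpl39, had no tested probe set. Of the tested probe sets, 20 had a mean signal of 3360 or more, all above the 95th percentile of the array, and the next lower one had a mean of 1078. These 20, of 18 genes, are called the bright ribosomal protein probe sets, with 3000 as the limit, which was chosen after the values were seen.

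The RefSeq promoter windows of member genes, from 250 bases before to 50 bases after the annotated start on GRCm38.p6, were available for 27 of the 34 genes. These 27 genes, bright or not, lie on 14 chromosomes. The windows are shown as a description, and their part in the joint variation of the bright probe sets, described further on, was not tested. The windows below run from 100 bases before to 30 bases after the start, 5′ to 3′ along the gene. Capitals mark matches, on either strand, to CTTCCG (an ETS-type core), CTTTCC (a stretch found in many 5′ TOP starts) and AAGATGG (a YY1-type core). Rps18, Rps10 and Rps7 are genes whose signal was lower at 1 month once the litter pair described next was left out, and Rpl37a is one that did not pass the test. These 4 were chosen after the values were seen.
Rps18: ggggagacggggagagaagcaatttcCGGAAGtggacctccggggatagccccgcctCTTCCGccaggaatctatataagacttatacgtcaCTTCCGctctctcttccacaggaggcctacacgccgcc
Rps10: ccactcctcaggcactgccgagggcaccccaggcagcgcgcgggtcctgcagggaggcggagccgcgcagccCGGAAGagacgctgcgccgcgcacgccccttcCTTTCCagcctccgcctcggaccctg
Rps7: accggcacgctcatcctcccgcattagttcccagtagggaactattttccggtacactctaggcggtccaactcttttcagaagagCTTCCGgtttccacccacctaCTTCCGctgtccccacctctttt
Rpl37a: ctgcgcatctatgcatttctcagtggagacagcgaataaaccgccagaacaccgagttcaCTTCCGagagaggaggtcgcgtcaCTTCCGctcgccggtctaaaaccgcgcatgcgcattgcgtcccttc

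These windows are chr17:33955636-33955765 (minus strand) for Rps18, chr17:27635215-27635344 (minus strand) for Rps10, chr12:28635924-28636053 (minus strand) for Rps7 and chr1:72711160-72711289 (plus strand) for Rpl37a, each across the annotated transcription start. CTTCCG was present 3 times for Rps18, 1 time for Rps10 and 2 times each for Rps7 and Rpl37a. Over the full 300-base windows, CTTCCG was present in 18 of the 27 member genes (66.7%), against 18.8% of all 27025 genes in the table. It was absent for Rpl10a, Rps19, Rps4x and Rpl22 and present for Rps3a1. These genes were called lower with age in controls with all arrays, as given further on. Rps4l, also called there, had no window. CTTTCC was present in 16 of 27 (59.3%), against 29.3% of all genes. AAGATGG was present in 7 of 27 (25.9%), against 7.28% of all genes. No window of a member gene had CTTCCG and CTTTCC overlapping, and AAGATGG overlapped another of these motifs in 1 of the 36 windows. A match is only a match of letters. Rpl37a, which did not pass the test for age, also had 2 CTTCCG matches. The part of these motifs in the signals was not tested.

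Both mice of litter pair 4, male littermates at 7 days, stood apart. Their highest signals were 10167 on the array labelled Aprt KO and 10767 on the control array, against 25718 to 51453 on the other 16 arrays. On some of those the highest signal was that of the ribosomal protein Rpl41, such as the 25718 of 7-day control 6. The highest signal is thus not a measure separate from this family. The ribosomal proteins took 1.83% of the summed signal on that Aprt KO array and 1.85% on that control array, against 3.16 to 3.66% on the other 10 arrays at 7 days. Of the 20 bright ribosomal protein probe sets, 17 were lower on both arrays of the pair than on all the other 10, with a median at 59.4% of those. The same held for 170 of 544 other probe sets with a mean of 3000 or more, whose median was 87.2%.

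Rpl41, the smallest protein of the large subunit, read 1147 on the Aprt KO array and 1058 on the control array of litter pair 4, and at least 25718 on the other arrays at 7 days. Rpl41 stood at 3.64% of its level on the other arrays of that age, the lowest share of any probe set with a mean of 3000 or more. The 3′-to-5′ ratio of the Gapdh control probe sets, a measure of RNA or labelling quality, was 0.741 and 0.680 on the 2 arrays of the pair, against 0.832 to 1.16 on the other 16. The same ratio for actin was 0.967 and 1.02 on the pair, against 1.12 to 1.93 on the others. Both ratios were thus lower on the pair, not higher, and their part in the low signals was not tested. The main age counts and medians over all tested ribosomal protein probe sets are given with and without this pair. The age medians by subunit and of the bright probe sets, and the age values of the other gene lists, are given only without it. Age differences of most ribosomal protein genes described are given both ways, and the text gives none for Rpl41 or Rpl8. For genotype the values without the pair follow the others.

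**Figure D1:**
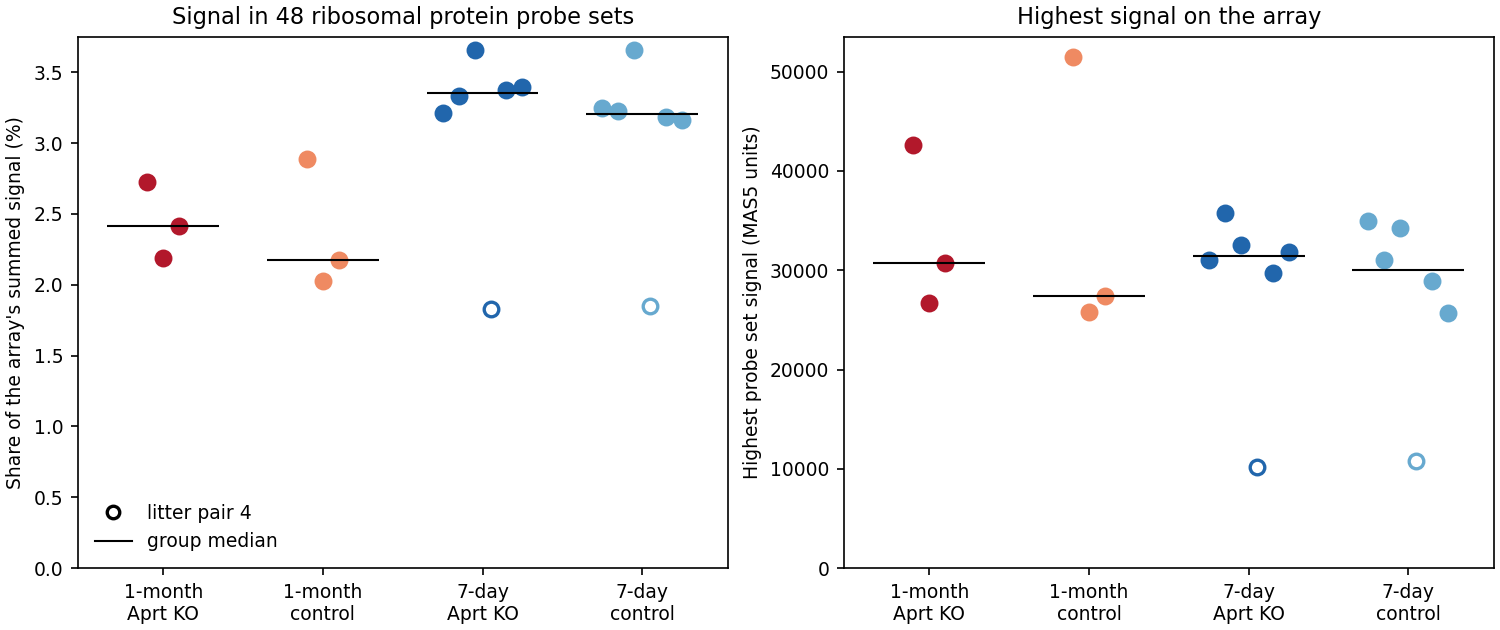
Share of each array's summed signal in the 48 ribosomal protein probe sets (left, percent) and the highest signal on each array (right, MAS5 units), by group. Each point is 1 array, open points are the 2 arrays of litter pair 4, and black lines are group medians. On some arrays the highest signal is that of Rpl41, itself a ribosomal protein. The ribosomal protein share lay between 3.16 and 3.66% on the other 10 arrays at 7 days and between 2.02 and 2.88% at 1 month, and litter pair 4 was at 1.83 and 1.85%.

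Aprt itself was the check of the labels. Its signal was 41.9 to 135 on the 9 arrays labelled Aprt KO and 51.3 to 148 on the 9 control arrays. All of these lay below the lowest median signal of an array, 160, so the check is a weak one. Aprt went against the label on 4 arrays. These were 1-month Aprt KO 1 (86.5), 7-day Aprt KO 4 (135) and 7-day controls 1 (66.3) and 2 (51.3). The signal on 1-month Aprt KO 1 was still below those of the 1-month controls, the lowest at 104. The tissue label was borne out by kidney markers, which were 14 probe sets on the array with 11 tested. Their summed signal was 74256 to 105188 at 1 month and 36775 to 67043 at 7 days. Proliferation markers summed to 14769 to 17670 at 1 month and 34937 to 48697 at 7 days. Macrophage and granulocyte markers summed to 12665 to 19906 on 7-day Aprt KO arrays and 5763 to 9471 on 7-day control arrays. Of these markers, 17 of 19 tested were called higher in 7-day Aprt KO mice. On the 7-day arrays whose Aprt signal went against the label, these sums lay on the side of the label. They were 14746 on Aprt KO 4, 5815 on control 1 and 5763 on control 2. Whether any mouse was mislabelled was not tested. Lymphocyte markers summed to 2761 to 3625 on the 7-day Aprt KO arrays and 1659 to 2284 on the 7-day control arrays, and 2 of 5 tested were called higher in Aprt KO mice. Of all tested probe sets, 2.73% were called between the genotypes at 7 days and 0.201% at 1 month, in either direction. At 1 month their sums were 1433, 2615 and 1619 on the Aprt KO arrays and 1518, 2047 and 1560 on the control arrays. Markers of adrenal, muscle, fat, liver and pancreas summed to 8655, 10986 and 17283 on the 1-month Aprt KO arrays and 8324, 6993 and 6296 on the control arrays of the same litters. Their median log2 difference at 1 month was 0.98, with 0 of 12 called. At 7 days they summed to 3638 to 7630 on Aprt KO arrays and 4266 to 8496 on control arrays. Red cell markers summed to 21753 to 59039 over the 18 arrays, and 0 of 5 was called higher and 1 lower in 7-day Aprt KO mice. The part of these cell types in the ribosomal protein values was not tested.

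The first question was whether the loss of Aprt changed the ribosomal proteins. No ribosomal protein probe set was called at either age. At 7 days, 0 of 29 was called, where 2.73% of all tested probe sets were. At 1 month, 0 of 29 was called, where 0.201% were. In limma's fit none of the 29 had an unadjusted p under 0.05 at 7 days or at 1 month. The genotype-by-age interaction called 0 of 29, where 0.375% of all tested probe sets were called, again with 0 at an unadjusted p under 0.05. The counts at an unadjusted p stand without the share of all tested probe sets at that limit and are not read as a result.

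The mouse names of the 7-day animals begin with M (4 litter pairs) or OA (2 litter pairs), a difference the labels do not explain. The median difference between Aprt KO and control over the 29 probe sets was 0.01 among M mice and 0.08 among OA mice, with 15 and 22 of 29 above 0.

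The differences were also small. At 1 month the median difference of the 29 probe sets was 0.06 on the log2 scale and the range was -0.24 to 0.33, beside a median of -0.00 over all tested probe sets. At 7 days the median was 0.03 and the range -0.18 to 0.20, beside a median of -0.01 over all tested probe sets. Within litter pairs, the median over the 29 probe sets of Aprt KO minus control ran from -0.07 in pair 7 to 0.12 in pair 9, and 4 of the 6 medians between -0.03 and 0.09 at 7 days were under 0.03 in size.

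With litter pair as a block the 95% intervals of all 29 probe sets were narrower than without it, at both ages. With litter pair as a block, 0 of 29 was called at 7 days, where 7.56% of all tested probe sets were called, and 0 of 29 at 1 month, where 1.22% were. The interaction with this block called 0 of 29, where 1.37% were called. An unadjusted p under 0.05 was reached by 1 probe set at 7 days and 3 at 1 month. The lowest adjusted p in limma's fit was 0.17 at 7 days, for Rpl13a, and 0.15 at 1 month, for Rps28.

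Rplp0, the scaffold protein of the ribosomal stalk and a gene often used to normalise PCR, had signals of 16591, 12710 and 14244 on the 1-month Aprt KO arrays and of 17865, 12089 and 11908 on the 1-month control arrays. At 7 days its lowest, median and highest signals were 7883, 19935 and 20862 on the Aprt KO arrays and 9113, 18557 and 20928 on the control arrays. The groups overlapped at each age, and the lowest value of both 7-day groups was litter pair 4. With litter as a block, the log2 difference between Aprt KO and control was 0.01 at 7 days (95% interval -0.11 to 0.13; adjusted p = 0.94, limma) and 0.07 at 1 month (95% interval -0.10 to 0.25; adjusted p = 0.80, limma).

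Without litter pair 4 the 7-day difference of Rplp0 was 0.06 (95% interval -0.06 to 0.17).

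Rps3, a small-subunit protein near the mRNA entry site, had a difference of 0.06 at 7 days (95% interval -0.05 to 0.17) and 0.03 at 1 month (95% interval -0.12 to 0.19). Rps19, the protein whose loss of a copy causes Diamond-Blackfan anemia in people, had a difference of 0.16 at 7 days (95% interval -0.13 to 0.44) and 0.06 at 1 month (95% interval -0.34 to 0.47). Rpl22, a large-subunit protein known for its role in T cell development, had a difference of -0.18 at 7 days by its brighter probe set (95% interval -0.39 to 0.02; adjusted p = 0.33, limma) and of 0.15 at 1 month (95% interval -0.14 to 0.44; adjusted p = 0.75, limma). The interaction of these was 0.33 (95% interval -0.02 to 0.69; adjusted p = 0.45, limma). Without litter pair 4, the 7-day differences were 0.07 for Rps3, 0.11 for Rps19 and -0.13 for the brighter Rpl22 probe set. No probe set was called without the pair, with or without the block, and the lowest adjusted p with the block was 0.33 at 7 days, again for Rpl13a, and 0.14 at 1 month, for Rps28 (limma). These intervals set the size of a difference that the arrays leave possible and do not show that the genotypes were alike.

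**Figure D2:**
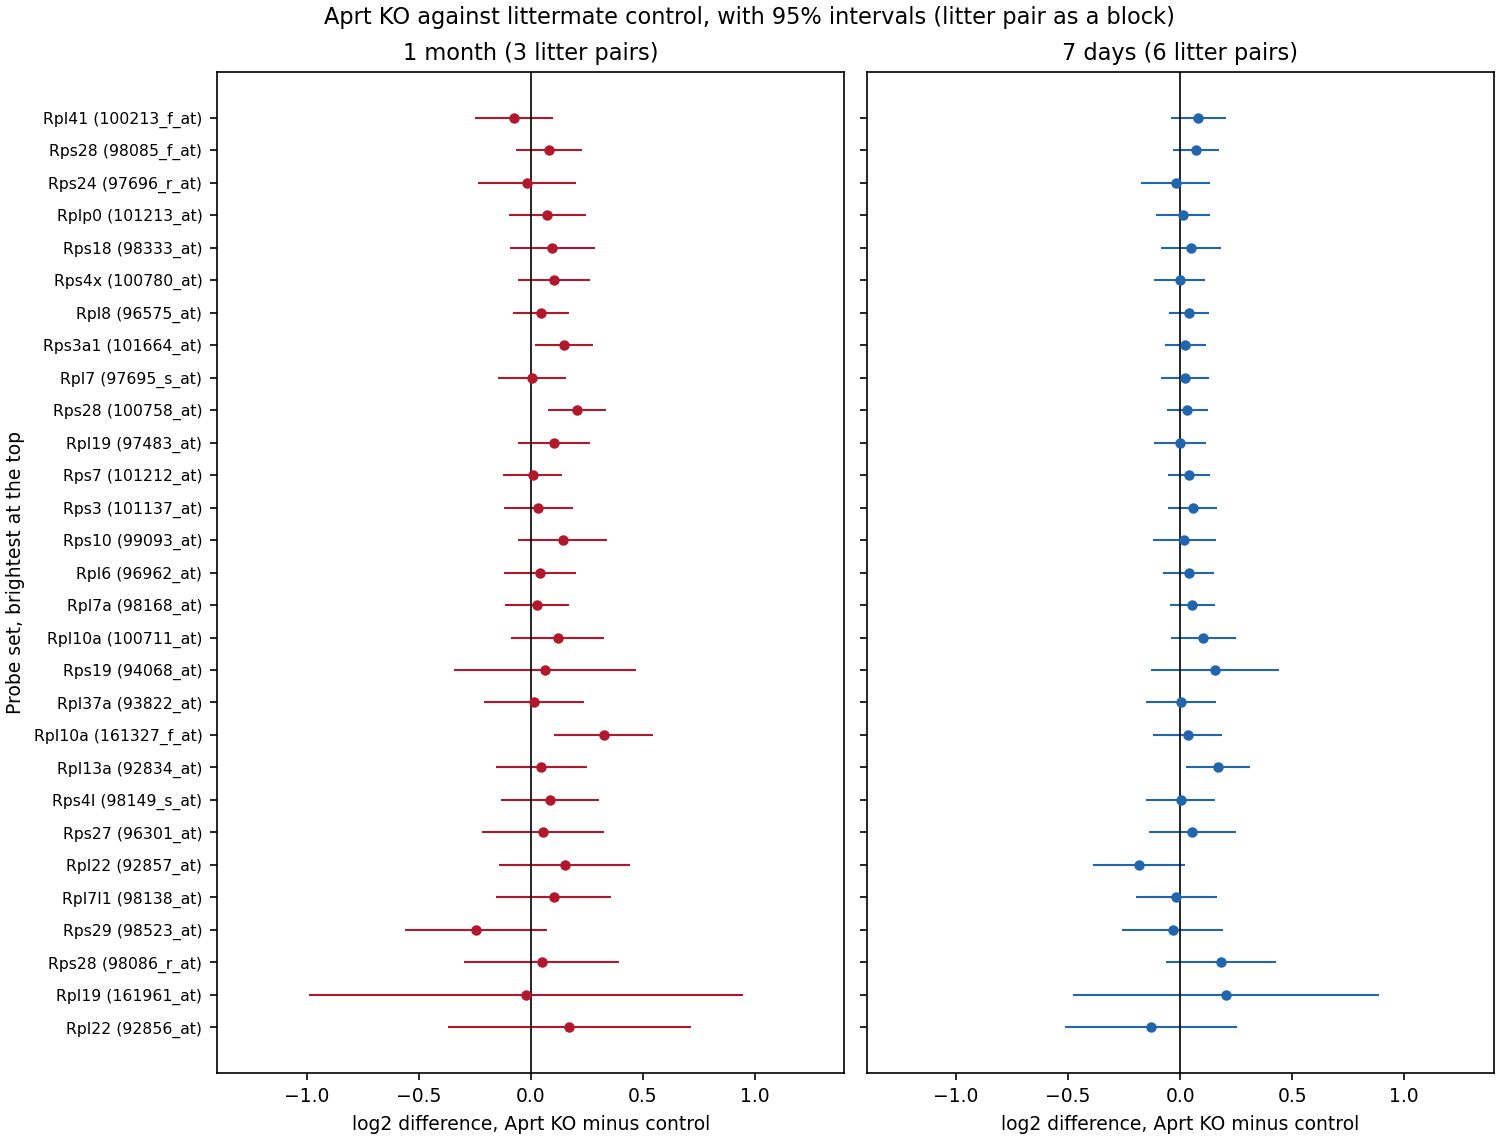
Log2 difference between Aprt KO and control littermates for each of the 29 tested ribosomal protein probe sets, brightest at the top, at 1 month (left, 3 litter pairs) and 7 days (right, 6 litter pairs). Points are limma estimates with litter pair as a block and bars are 95% intervals. The estimates lay between -0.24 and 0.33 at 1 month and between -0.18 and 0.20 at 7 days, with the widest intervals for Rpl19 and the dimmer Rpl22 probe set, both with mean signals near 140.

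The macrophage and granulocyte markers that were higher on the 7-day Aprt KO arrays had a median difference of 1.06 on the log2 scale beside these ribosomal protein differences. The mitochondrial ribosomal proteins, a separate family encoded by nuclear genes, had a median of -0.08 at both ages, with 0 of 65 probe sets called.

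The second question was how the ribosomal proteins differed between 1 month and 7 days. All 7-day mice have names that begin with M or OA, and no 1-month mouse does. The age differences therefore cannot be told apart from this difference in naming, which the labels do not explain. In the fit of all 18 arrays, 4 of 29 probe sets fell in Aprt KO mice and 7 of 29 in controls, and none rose. The share called lower was 13.8% in Aprt KO mice, where 23.8% of all tested probe sets were lower and 14% higher, and 24.1% in controls, where 24.6% were lower and 13.7% higher. The median difference was -0.27 in Aprt KO mice, beside -0.12 over all tested probe sets, and -0.28 in controls, beside -0.11. These shares were not above the background.

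Leaving out litter pair 4 was chosen after the values were seen. At 7 days its arrays were the lowest for 17 of the 20 bright ribosomal protein probe sets. Leaving them out raises the 7-day level of these probe sets, so higher counts without the pair are not a separate result. Without litter pair 4, 17 of 29 probe sets fell in Aprt KO mice, where 23.7% of all tested probe sets were lower, and 16 of 29 in controls, where 24.6% were lower. The median was -0.41 in Aprt KO mice, beside -0.12 over all tested probe sets, and -0.40 in controls, beside -0.11. The 1-month arrays all lay below the 7-day arrays for 17 of 29 probe sets in Aprt KO mice, as for 23.3% of all tested probe sets, and for 12 of 29 in controls, as for 21.9%. With litter pair 4 these counts were 2 of 29, beside 21%, and 3 of 29, beside 19.8%. Leaving out 1-month Aprt KO 1 besides litter pair 4 brought the Aprt KO count called lower to 3 of 29. Over the other 15 arrays left out one at a time it lay between 12 and 20, and the control count lay between 12 and 17 for all 16. The shares of all tested probe sets called lower in these fits were not recorded, so these counts cannot be set against a background.

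The count called also depended on the scaling. The deposited scale fixes the trimmed mean of an array, and the median signal was 160 to 179 at 1 month and 187 to 216 at 7 days. With each array centred on its median, the median difference over all tested probe sets moved to 0.11 in Aprt KO mice and 0.11 in controls, and the split of all calls turned to 1729 higher and 1009 lower in Aprt KO mice and to 1698 higher and 1090 lower in controls, against 1047 higher and 1777 lower and against 1022 higher and 1833 lower on the deposited scale. Without litter pair 4 and with median centring, 2 of 29 ribosomal protein probe sets fell in Aprt KO mice, where 13.6% of all tested probe sets were lower, and 6 in controls, where 14.1% were. The ribosomal protein median minus the median of all tested probe sets was -0.29 in both genotypes without litter pair 4, and -0.15 in Aprt KO mice and -0.17 in controls with it. Centring shifts all probe sets of an array alike and leaves this difference as it is. Quantile normalization, which can move it, gave -0.39 in Aprt KO mice and -0.48 in controls without litter pair 4.

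Both subunits had about the same difference. Without litter pair 4, the small-subunit median was -0.42 in Aprt KO mice and -0.41 in controls over 14 probe sets, and the large-subunit median was -0.40 and -0.39 over 15. The 20 bright probe sets had medians of -0.42 in both genotypes, while the other 544 bright probe sets of the array had medians of 0.14 in Aprt KO mice and 0.17 in controls. The summed ribosomal protein share was 2.72, 2.19 and 2.42% on the 1-month Aprt KO arrays and 2.88, 2.02 and 2.17% on the 1-month control arrays, with the female littermates of pair 7 the highest in each group. Pair 7 was the only female pair at 1 month, so sex and litter cannot be told apart there. The sex term of that age sets this litter against pairs 8 and 9.

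Rpl10a, a large-subunit protein at the L1 stalk, had the lowest adjusted p of the family in both age comparisons. Its brighter probe set read 4314, 3909 and 4523 on the 1-month Aprt KO arrays and 4418, 3842 and 3489 on the 1-month control arrays. At 7 days, the lowest, median and highest signals were 6067, 7271 and 8566 on the Aprt KO arrays and 5980, 6424 and 8281 on the control arrays. All 6 arrays at 1 month lay below all 12 at 7 days, litter pair 4 included. The fall was 0.74 ± 0.12 on the log2 scale in Aprt KO mice (SE; adjusted p = 9.8e-05, limma) and 0.76 ± 0.12 in controls (SE; adjusted p = 7.9e-05, limma), as log2 differences of -0.74 and -0.76. It was called under each of the 39 alternatives run for an age comparison in both genotypes. Its dimmer probe set had differences of -0.58 in Aprt KO mice and -0.87 in controls, both called, and the first was not called without litter pair 4 (adjusted p = 0.052, limma) and lost its call in 12 of 38 alternatives. The name of this dimmer probe set ends in f_at, and 4 pseudogenes are named after Rpl10a. Whether both probe sets read the same transcript was not tested.

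Rps19 read 3818, 4315 and 2564 on the 1-month Aprt KO arrays and 2866, 4121 and 3125 on the 1-month control arrays. At 7 days its lowest, median and highest signals were 5142, 6413 and 9230 on the Aprt KO arrays and 3948, 7308 and 7803 on the control arrays. The Aprt KO groups of the 2 ages did not overlap, and the control groups did, through 1-month control 2 and the lowest 7-day control. The log2 difference was -0.97 ± 0.23 in Aprt KO mice (SE; adjusted p = 0.0030, limma) and -0.88 ± 0.23 in controls (SE; adjusted p = 0.0061, limma). It was -0.99 in Aprt KO mice and -0.95 in controls without litter pair 4, both called. The control call was lost in 1 of 39 alternatives, without 1-month control 1, at -0.66.

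Rps4x, the X-linked small-subunit protein that also has a Y-linked form in people, read 10622, 8904 and 12062 on the 1-month Aprt KO arrays and 11227, 8457 and 9664 on the 1-month control arrays. Its lowest, median and highest signals at 7 days were 9326, 14944 and 19653 on the Aprt KO arrays and 9537, 14457 and 20856 on the control arrays. The ages overlapped only through litter pair 4, the lowest array of each 7-day group. Its log2 difference was -0.42 in Aprt KO mice (adjusted p = 0.12, limma) and -0.53 in controls (adjusted p = 0.050, limma, just called). The control call was lost in 21 of 39 alternatives, among them median centring and leaving out any one of the 1-month arrays. Without litter pair 4 the difference was -0.53 in Aprt KO mice (adjusted p = 0.012, limma) and -0.64 in controls (adjusted p = 0.0040, limma).

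The paralog Rps4l had differences of -0.55 in Aprt KO mice and -0.64 in controls, both called with all arrays. They were -0.63 and -0.67 without litter pair 4, both called. The Aprt KO call was lost in 10 of 39 alternatives, among them median centring, quantile normalization and leaving out 1-month Aprt KO 1 or 2 or 7-day Aprt KO 3, 5 or 6. The control call was lost in 4 of 39, with median centring and without 1-month control 1 or 2. The name of its probe set ends in s_at, which in this array's naming marks probes shared by several transcripts. Rpl22 fell in controls by its brighter probe set, with a difference of -0.64 (adjusted p = 0.0071, limma), and its difference in Aprt KO mice was -0.30 (adjusted p = 0.19, limma). Leaving out litter pair 4 gave -0.43 in Aprt KO mice and -0.71 in controls, both called. Its dimmer probe set, at a mean signal of 140, had differences of 0.32 in Aprt KO mice and 0.02 in controls, neither called. Rps3a1, a small-subunit protein, was also called lower in controls, at -0.47 (adjusted p = 0.038, limma), with -0.34 in Aprt KO mice (adjusted p = 0.13, limma). Its differences without litter pair 4 were -0.44 in Aprt KO mice and -0.56 in controls, both called. With these, the calls with all arrays were 2 probe sets of Rpl10a, Rps19 and Rps4l in Aprt KO mice, and the same 4 with Rps4x, Rps3a1 and Rpl22 in controls.

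Rps10 and Rps7, small-subunit proteins, also fell without litter pair 4, by differences of -0.49 and -0.43 in Aprt KO mice and of -0.58 and -0.40 in controls. With all arrays these were -0.36 and -0.33 in Aprt KO mice and -0.49 and -0.30 in controls, none called. Rplp0 and Rps18 show how far the litter pair moved the values. The log2 difference of Rplp0 was -0.18 in Aprt KO mice and -0.24 in controls with all arrays (adjusted p = 0.65 and 0.53, limma), and -0.41 and -0.43 without litter pair 4 (adjusted p = 0.0016 and 0.0011, limma). Rps18, a protein of the small-subunit head, read 15309, 10142 and 11006 on the 1-month Aprt KO arrays and 16504, 8759 and 9645 on the 1-month control arrays. At 7 days its lowest, median and highest signals were 7828, 17409 and 18406 on the Aprt KO arrays and 8957, 16008 and 17100 on the control arrays. In both genotypes the highest value at 1 month was the female mouse of pair 7, and the lowest at 7 days was litter pair 4. Its difference with all arrays was -0.23 in Aprt KO mice and -0.28 in controls, neither called. Without that pair it was -0.42 in Aprt KO mice (adjusted p = 0.0012, limma) and -0.43 in controls (adjusted p = 0.0012, limma).

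Rpl37a, a zinc-binding large-subunit protein, was an exception among the bright probe sets. It read 5404, 4179 and 3890 on the 1-month Aprt KO arrays and 5269, 5316 and 3041 on the 1-month control arrays. Its lowest, median and highest signals at 7 days were 4103, 4626 and 4974 on the Aprt KO arrays and 3976, 4656 and 5379 on the control arrays. The ages overlapped, with differences without litter pair 4 of -0.01 in Aprt KO mice (95% interval -0.31 to 0.29) and -0.03 in controls (95% interval -0.33 to 0.27). With all arrays they were 0.01 and 0.00.

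Rps3 and Rpl13a did not pass the test in either genotype. Rps3 had differences of -0.32 in Aprt KO mice (adjusted p = 0.062, limma) and -0.28 in controls (adjusted p = 0.10, limma) without litter pair 4. Rpl13a, known in human cells to leave the ribosome in the GAIT response, had differences of -0.40 (adjusted p = 0.14, limma) and -0.30 (adjusted p = 0.27, limma). Rpl7l1, a paralog that is thought to act in ribosome assembly, had differences of -0.19 (adjusted p = 0.40, limma) and -0.31 (adjusted p = 0.16, limma). With all arrays the differences in Aprt KO mice and controls were -0.16 and -0.14 for Rps3, -0.44 and -0.32 for Rpl13a and -0.22 and -0.34 for Rpl7l1, none called.

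**Figure D3:**
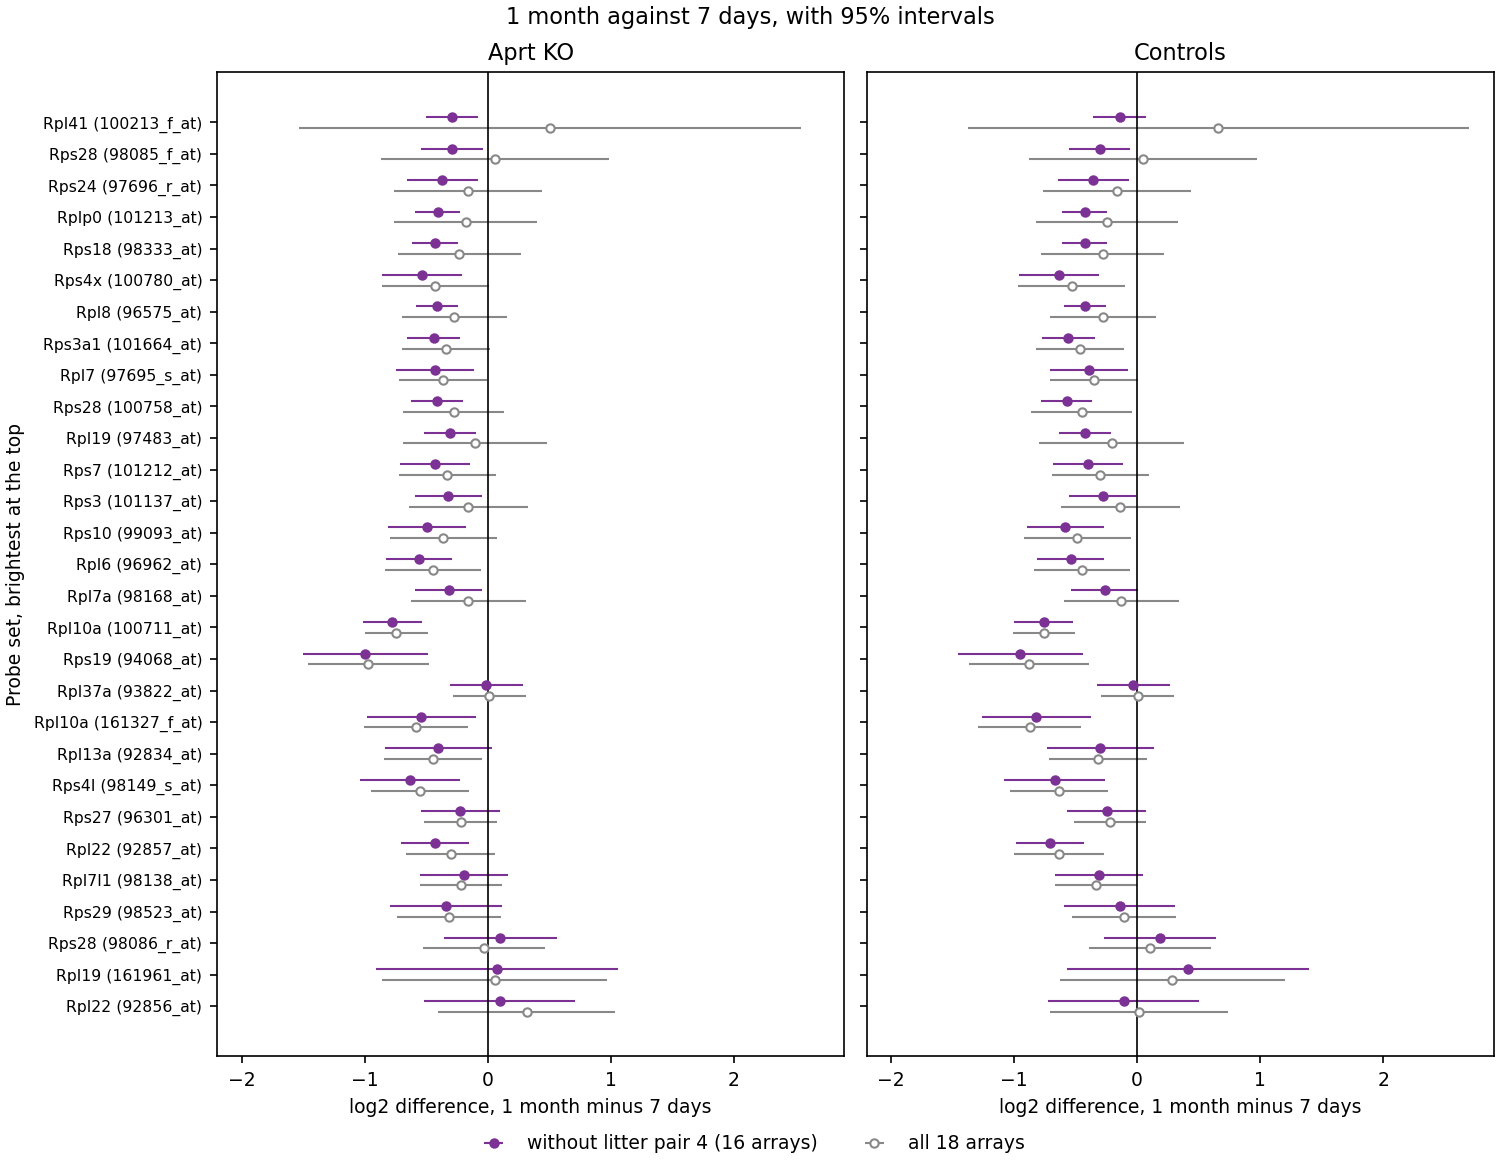
Log2 difference between 1 month and 7 days for each of the 29 tested ribosomal protein probe sets, brightest at the top, in Aprt KO mice (left) and controls (right). Filled points leave out litter pair 4 (16 arrays), open points use all 18 arrays, and bars are 95% intervals from limma. Without the pair, all 20 bright probe sets are below 0 in both genotypes, Rpl37a by 0.01 and 0.03.

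**Figure D4:**
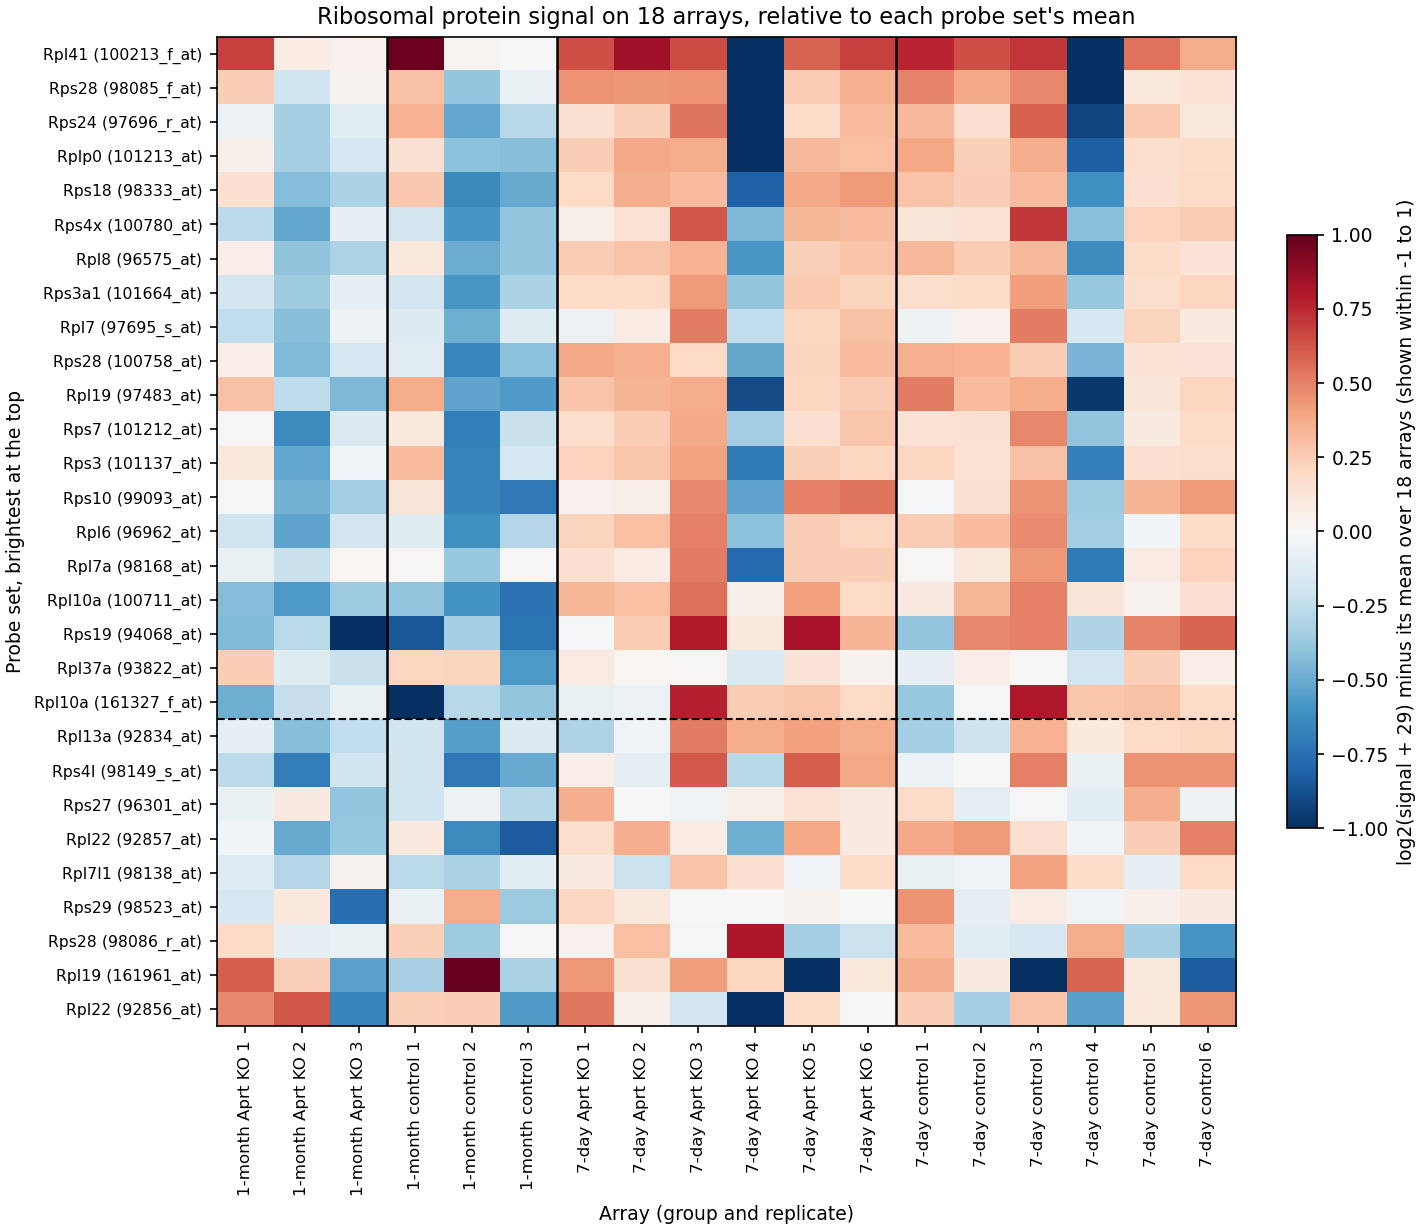
Signal of the 29 tested ribosomal protein probe sets (rows, brightest at the top) on the 18 arrays (columns), as log2(signal + 29) minus the mean of the probe set, in colour from -1 to 1. Vertical lines separate the groups and the dashed line marks a mean signal of 3000. The 2 columns of litter pair 4 are low across the bright rows, with Rpl41 beyond the colour range, and the 1-month columns of pair 7 are closer to the 7-day columns than those of pairs 8 and 9.

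The bright probe sets varied together within groups. The deviations from group means of pairs of bright ribosomal protein probe sets had a median Pearson r of 0.81 over 18 arrays and 0.57 over the 16 without litter pair 4. For the other bright probe sets these medians were 0.16 and 0.11. For the 9 tested ribosomal protein probe sets under a mean of 3000 they were -0.12 and -0.05. These are descriptions, since the points share arrays, scaling and, for some probe sets, near-identical sequence.

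Shared sequence limits how far single genes can be read. The assembly annotation lists 87 pseudogenes named after 24 of the 34 genes, with 14 for Rpl7a, 13 for Rps19 and 12 for Rpl19, and a probe set can pick up an expressed copy. The bright probe sets labelled Rps24 and Rpl7 carry the same sequence record in the platform table, so their gene names are uncertain. Rps28 had 3 probe sets, and their differences between 1 month and 7 days without litter pair 4 were -0.29, -0.41 and 0.10 in Aprt KO mice and -0.30, -0.57 and 0.18 in controls, with the dimmest in each case the one above 0. With all arrays they were 0.06, -0.28 and -0.03 in Aprt KO mice and 0.05, -0.45 and 0.10 in controls, none called.

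Other parts of the translation apparatus were listed beside the ribosomal proteins. The values that follow leave out litter pair 4, a choice made after the values were seen, with Aprt KO mice before controls. Over all tested probe sets, 23.7% and 24.6% were called lower and 13.9% and 13.3% higher in the same fit. Of 69 tested probe sets of ribosome biogenesis factors and RNA polymerase I subunits, 23 and 21 fell and 1 and 2 rose, with medians of -0.25 and -0.23. Nop56, a core protein of the box C/D particles that guide rRNA methylation, fell, with differences of -1.07 and -1.23, and Npm1, the nucleolar protein nucleophosmin, fell, with differences of -0.92 and -0.89.

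Of the initiation factors, 6 and 5 of 34 fell and 2 and 0 rose. Pabpc1, the poly(A)-binding protein whose mRNA carries a 5′ TOP sequence, fell, with differences of -0.59 and -0.66. Of the elongation and termination factors, 0 and 1 of 12 fell. Of 24 probe sets of cytosolic aminoacyl-tRNA synthetases, which load tRNAs with amino acids, 7 and 7 fell and 0 and 1 rose.

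Of 17 probe sets of other 5′ TOP mRNAs, 4 and 3 fell and none rose, with medians of -0.28 and -0.29. Eef1a1, the factor that brings tRNAs to the ribosome, had differences of -0.26 (adjusted p = 0.088, limma) and -0.19 (adjusted p = 0.22, limma). Tpt1, the translationally controlled tumor protein, had differences of -0.07 (adjusted p = 0.62, limma) and -0.03 (adjusted p = 0.86, limma). Rpsa, a small-subunit protein outside the naming rule, had differences of -0.41 (adjusted p = 0.015, limma) and -0.32 (adjusted p = 0.054, limma).

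Of 29 regulators of ribosomal protein synthesis, 5 and 8 fell and 3 and 2 rose. Mtor, the kinase that drives translation of 5′ TOP mRNAs, rose, with differences of 0.87 and 1.06. Eif4ebp1, a translation inhibitor that mTOR phosphorylates, fell in controls, with a difference of -0.73. Its value in Aprt KO mice is not given, so this is not read as a difference between the genotypes. Of 65 probe sets of mitochondrial ribosomal proteins, 10 and 13 rose, a share near that of all tested probe sets, and 0 and 1 fell, with medians of 0.21 and 0.23. On the median-centred scale the median of all tested probe sets lies about 0.2 higher than on the deposited scale, so that the medians of this paragraph and of those before are to be read against -0.12 and -0.11.

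Beside these, 28 and 27 of 33 proliferation markers fell, with medians of -1.19 and -1.45, and 10 and 9 of 11 kidney markers rose, with medians of 1.12 and 0.79. Of 19 macrophage and granulocyte markers, 14 fell in Aprt KO mice and none rose, and 2 fell and 2 rose in controls. The part of the changing cell makeup in the ribosomal protein difference was not tested.

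**Figure D5:**
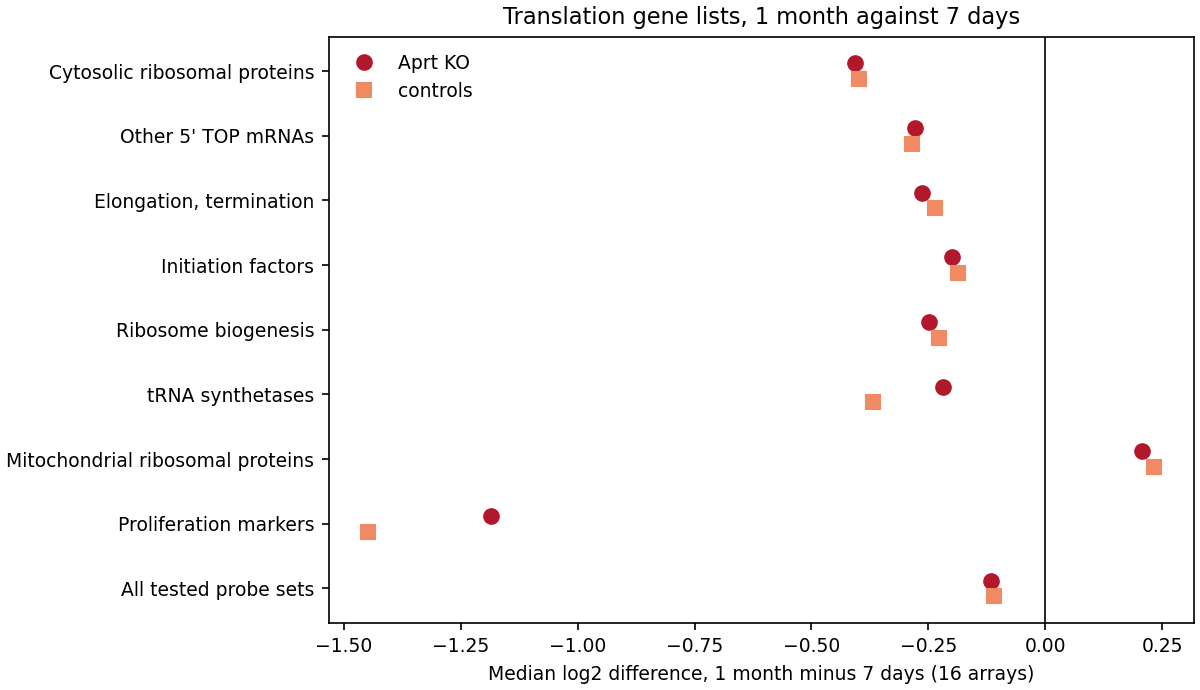
Median log2 difference between 1 month and 7 days for the ribosomal proteins, 7 other gene lists and all tested probe sets, in Aprt KO mice (circles) and controls (squares), without litter pair 4. The cytosolic ribosomal proteins are at -0.41 and -0.40, the mitochondrial ribosomal proteins at 0.21 and 0.23, and all tested probe sets at -0.12 and -0.11.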

How the data were processed

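Kidney RNA of 18 mice was measured on 1-colour arrays, and the authors deposited 1 signal intensity per probe set and array, and the submitters' processing notes name the programs GCOS and MAS5, with no version. Probe-level data were not used here. The 4 promoters shown, the limit of 3000 and the leaving out of litter pair 4 were chosen after the values were seen. The deposited intensities were not normalised further. Probe sets with a mean signal under the 40th percentile (119) and 66 control probe sets were left out. limma 3.58.1 in R 4.3.3 was fitted to log2(signal + 29), with 29 the 20th percentile of all signals, over 7464 probe sets, with 4 groups and a sex term per age, and Benjamini-Hochberg adjustment over all of them. Genes were named from the platform table, where 10833 probe sets had 1 symbol, 396 had several and 1193 had none. The number of arrays limits the precision.

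The labels state littermates, so the 9 pairs are true pairs. Same-pair arrays correlated at 0.23 to 0.68 in their deviations from the group means. Litter pair was added as a block (residual degrees of freedom 7, against 12) and as a random block (correlation 0.57). The members, gene lists and tests were chosen with earlier results of these data known. The member probe sets named were the 5 largest called rises and falls of each comparison, those of 15 listed genes (among them Rplp0, Rpl13a, Rpl22, Rps3, Rps4x and Rps19) and like-named paralogs; of each list, up to 4 called members. Rps3a1, Rps18, Rps7, Rps10, Rps28, Rpl8, Rpl37a and Rpl41, the name-sharing Rps24 and Rpl7, and Eef1a1, Tpt1 and Rpsa among the lists, were chosen after their values were seen. The test was tried on simulated data. Alternatives covered the pseudocount, filter, normalization, blocks, covariates and arrays left out.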

Additional observations from a re-analysis of the deposited data

Results flagged for a closer look

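In the 7-day groups of 6, the highest or lowest array was tested for its distance from the others (Dixon's test) for the ribosomal protein share and for 16 probe sets named in the text. Of 34 groups tested, 15 had an array at such a distance, and 14 of the 15 were the 2 arrays of litter pair 4. Chance gives about 1 in 20 for a single group, but this count is no test: the probe sets share the arrays and varied together, and 5 of them, with 8 of the distances, were chosen after their values were seen.

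The share of signal in the ribosomal proteins was 1.83% on the array labelled 7-day Aprt KO 4 and 1.85% on 7-day control 4, with the nearest arrays at 3.21 and 3.16%. The other low signals, given as the Aprt KO array and then the control array of the pair, were 1147 and 1058 for Rpl41, 7883 and 9113 for Rplp0, 6433 and 6544 for Rps3, and 7828 and 8957 for Rps18. Rpl8, a protein at the core of the large subunit, read 7959 and 7668, and Rps3a1 read 9026 and 9095. The remaining one was high: the dimmer Rpl10a probe set read 5532 on 7-day Aprt KO 3, with the nearest array of its group at 3898. The female control of the same litter was also the highest of its group for that probe set, at 5622.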

How the results depend on the processing

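Of 40 alternatives, the 6 that leave out litter pair 4 as a whole were chosen after seeing the data. Over all 40, the genotype comparisons and the interaction called 0 of 29 ribosomal protein probe sets each time. No called result changed direction. With the replicate block by litter, fixed or random, 0 was called for genotype. The random block called 5 lower with age in Aprt KO mice and 9 in controls (22.1 and 22.7% of all tested probe sets) and changed no call of a named probe set. The age counts, 4 in Aprt KO mice and 7 in controls, did move, and the percentages are the shares of all tested probe sets called lower in the same fit, 23.8 and 24.6% with the deposited scale. Quantile normalization gave 11 and 15 (18.5 and 19%) and centring on the array median 2 and 3 (13.5 and 14.6%). Leaving out litter pair 4 gave 17 and 16 (23.7 and 24.6%), with a random litter block 17 and 17 (21.6 and 22.3%), with quantile normalization 20 and 20 (18 and 18.8%), with the Gapdh ratio as covariate 10 and 17 (23.4 and 26.1%), without the sex term 16 and 17 (23.3 and 24.1%), and centred on the median 2 in Aprt KO mice (13.6%). The Gapdh ratio alone gave 11 in controls (25.8%), array weights 8 in Aprt KO mice (24.2%), and leaving out the 4 arrays whose Aprt signal went against the label 2 in Aprt KO mice (11.8%). Leaving out 1 array at a time gave 2 to 8 in Aprt KO mice (13.5 to 24.3%) and 2 to 10 in controls (15.1 to 24.9%); the Aprt KO count was 2 without 1-month Aprt KO 1, without 1-month Aprt KO 2 or without 7-day Aprt KO 3, and 8 without 7-day Aprt KO 4, and the control count was 2 without 1-month control 1 and 4 without 1-month control 2. The cause of these shifts was not tested. Signals of the 19 untested probe sets are too near background to compare.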
